A study of Mus musculus with 2 samples.

Results

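The genes described here encode the 5 complexes of oxidative phosphorylation, together with both ribosomal RNAs of the mitochondrial genome. They were picked by symbol from the gene list of the count tables, which gave 104 of 55450 gene identifiers. Of these, 13 are mRNA genes of mitochondrial DNA (mtDNA), 2 are mtDNA ribosomal RNA genes (mt-Rnr1 and mt-Rnr2), and 89 lie in the nucleus. A few of the nuclear identifiers are annotated as processed pseudogenes and are named below. The values come from single-cell RNA libraries of brain cells from adult male C57BL/6J mice, sorted as CD11b-positive cells with low CD45, the usual gate for microglia, the resident macrophages of the brain. The awake group was 3 mice injected with saline, and the anesthesia group was 3 mice injected with 100 mg/kg sodium pentobarbital, a barbiturate. Each group gave 1 library, made with the 10x Genomics 3′ kit, which reads RNA next to the poly(A) tail and counts each captured molecule once by its barcode, a UMI. The sources used here give neither the pooling of mice within a group nor the time from injection to dissection. Because each group has a single library, no replicate check exists and no test was made. Every interval is a 95% interval for counting error only, and "higher" and "lower" describe these libraries.

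Oxidative phosphorylation passes electrons from NADH through complex I, or from succinate through complex II, to ubiquinone, then through complex III and cytochrome c to complex IV, which reduces oxygen. Complexes I, III and IV pump protons across the inner mitochondrial membrane, and complex V, the ATP synthase, makes ATP as the protons flow back. Complex II is encoded wholly in the nucleus, whereas the other complexes are built from subunits of both genomes. The mtDNA is copied into long precursors from both strands that are cut into separate RNAs, and most of the mRNAs are given short poly(A) tails. Its genes therefore share their transcription to a degree that nuclear genes do not.

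The awake library held 53262885 UMIs in 8600 barcodes and the anesthesia library 61139016 in 9412, with medians of 5883 and 5347 UMIs per barcode. In each cluster named microglia-like all 10 microglial markers of the list were found in at least 25% of cells, and these cells numbered 7720 and 8555, with 49556598 and 57352894 UMIs in all. The clusters of these cells were nearly separate by library: cluster c1 held 4251 awake and 128 anesthesia cells and cluster c3 held 2742 and 113, whereas c0 held 55 and 4413 and c2 held 85 and 3472. Library, handling and treatment cannot be told apart. The libraries shared 14 barcodes, 11 of them microglia-like, and leaving these out moved no ratio of a measured member in microglia-like cells by more than its counting interval. The other classes were not recomputed without them. Markers of 17 other cell classes summed to 1620 CPM (UMIs of a gene scaled to 1000000 UMIs of the cell class) in awake and 1390 CPM in anesthesia microglia-like cells, and 10 of the 17 classes were higher in the awake library. No UMI was found in these cells for Cd3e, Cd8a, Pax5 or Slc4a1 in at least 1 library, each a defining marker of a blood cell class. Other markers of the same classes were found. In awake and anesthesia microglia-like cells, B cell markers summed to 237 and 208.7 CPM, erythroid markers to 68.7 and 122.7, and T cell markers to 2.02 and 4.87. The nuclear RNA Malat1 made up 2.73% of awake and 3.43% of anesthesia UMIs, and Gm42418, a gene that overlaps nuclear ribosomal RNA, 0.159% and 0.399%. The part of these differences in the results was not tested.

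In microglia-like cells the mtDNA genes took a larger share of UMIs in the anesthesia library. The size and sign of the mRNA difference depended on which clusters were summed. The 13 mtDNA mRNAs summed to 1.18% of awake and 1.48% of anesthesia UMIs, or 0.32 as a log2 ratio (0.32 to 0.33). The ribosomal RNAs mt-Rnr1 and mt-Rnr2 summed to 0.610% and 0.997%, a log2 ratio of 0.71. The 89 nuclear members summed to 0.867% and 0.846%, a log2 ratio of -0.03. Per gene, 9 of 13 mtDNA mRNAs were at least 1.5-fold higher in the anesthesia library and 0 were lower, with a median log2 ratio of 0.89. Over all 11450 genes with at least 200 UMIs, counted as measured here, 13.1% were at least 1.5-fold higher and 12.0% at least 1.5-fold lower, and the median log2 ratio was -0.02. Of the 77 measured nuclear members, 5 were higher and 1 was lower by that fold, both shares below those of all measured genes, and their median was -0.09. With the fold limit lowered to a difference of 25%, taken as the same ratio in either direction, 10 nuclear members were higher and 13 lower, against 25.5% and 26.2% of all measured genes. Without cluster c1, the larger awake cluster, the summed mtDNA mRNA log2 ratio turned to -0.11, and without c0, the larger anesthesia cluster, it was 0.03. Leaving out c2 or c3 raised it. Each of these clusters came almost wholly from 1 library, so leaving it out changed mainly that library's share. Taken cluster by cluster, the mRNA sum was higher in the anesthesia library in 6 of 7. Without c1, 4 of 13 mtDNA mRNAs passed the fold and their median was 0.49. The ratios of mt-Nd1 (-0.03), mt-Nd2 (-0.14), mt-Cytb (-0.21) and mt-Nd4 (-0.50) were then below 0, and the other 9 mRNAs ran from 0.36 to 1.32. The ribosomal RNA sum stayed above 0 without any of the 4 large clusters, from 0.38 without c1 to 1.02 without c3.

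The mtDNA mRNAs did not differ by a common factor. Before their values, 2 stretches of the mitochondrial genome are shown, because each is shared by a pair of genes that are carried on the same mature RNA and yet gave different ratios. The capitals mark the bases that belong to both genes, read on the plus strand of GRCm38, with 15 bases on either side.
mt-Atp8 and mt-Atp6, chrM:7912-7984: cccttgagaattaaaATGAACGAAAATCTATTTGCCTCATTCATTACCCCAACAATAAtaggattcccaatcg
mt-Nd4l and mt-Nd4, chrM:10152-10188: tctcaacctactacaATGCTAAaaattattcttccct
The first overlap is 43 bases long and opens with the start codon of mt-Atp6 inside the reading frame of mt-Atp8. The second is 7 bases long and joins the end of mt-Nd4l to the start of mt-Nd4. The poly(A) tail, next to which the kit reads, follows the downstream gene of each pair, mt-Atp6 or mt-Nd4. The upstream genes mt-Atp8 and mt-Nd4l lie farther from it, so the counts of a pair are not like measures of the same RNA. The part of this in their ratios was not tested. How the authors' counting treated reads that lie in both genes is not given in the sources used here.

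Complex V has both mtDNA subunits on the first of these RNAs. The gene mt-Atp8, a small membrane subunit, had 3165 awake and 12161 anesthesia UMIs, or 63.9 and 212.0 CPM, a log2 ratio of 1.73 (1.68 to 1.79). Its partner mt-Atp6, which forms the proton channel, had 2967 and 6658 UMIs, for a log2 ratio of 0.96 (0.89 to 1.02). The mt-Atp8 ratio was the highest of all 13 mRNAs, and the intervals of the pair did not overlap.

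Complex I has 7 mtDNA subunits, all in its membrane arm. The antiporter-like pump subunit mt-Nd4 had 117739 awake and 130230 anesthesia UMIs, a log2 ratio of -0.07 (-0.08 to -0.05), the only one of the 13 below 0. It was 0.41 without cluster c3 and 0.07 without c2, so its sign depended on which cells were summed. Its neighbour on the same RNA, mt-Nd4l, had 226 and 580 UMIs, for a log2 ratio of 1.15 (0.92 to 1.38). These 2 genes share a transcript, of which only mt-Nd4 adjoins the tail, and stood at opposite sides of the 1.5-fold limit. The pump subunit mt-Nd2 had 113672 and 158426 UMIs, a log2 ratio of 0.27, and mt-Nd1, which lies at the ubiquinone site, had 129205 and 201023, a log2 ratio of 0.43. The remaining subunits were all past the fold: mt-Nd3 with 13494 and 28327 UMIs (log2 ratio 0.86), mt-Nd5 with 18163 and 38986 (0.89), and mt-Nd6 with 912 and 2550 (1.27). Of the 13 mRNA genes mt-Nd6 alone lies on the minus strand.

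The single mtDNA subunit of complex III, the ubiquinol-oxidizing mt-Cytb, had 164052 awake and 218998 anesthesia UMIs, a log2 ratio of 0.21 (0.20 to 0.22). The complex IV catalytic core was past the fold in all 3 genes. The heme- and copper-binding mt-Co1 had 21395 and 46731 UMIs (log2 ratio 0.92), mt-Co2, which takes electrons from cytochrome c, had 395 and 905 (0.99), and mt-Co3 had 1253 and 2523 (0.80). Both ribosomal RNAs were past the fold as well: mt-Rnr2 of the large ribosomal subunit had 247502 and 461627 UMIs (log2 ratio 0.69) and mt-Rnr1 of the small subunit had 54680 and 110352 (0.80). The complex I ratios therefore spanned those of every other complex except the top value of complex V.

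**Figure D1:**
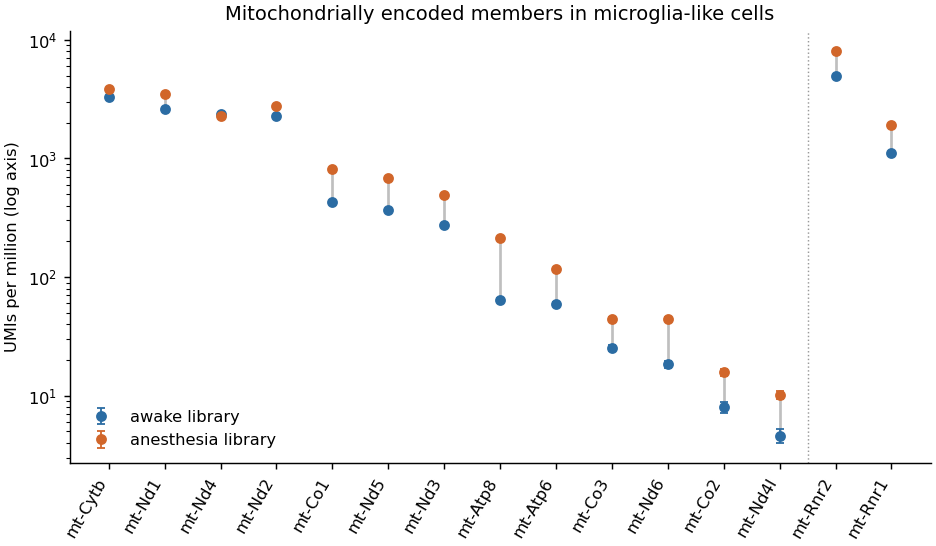
Level in CPM (log axis) of the 13 mtDNA mRNAs, ordered by the awake value, and of the 2 ribosomal RNAs at the right of the dotted line, in microglia-like cells of the awake and anesthesia libraries; bars are exact Poisson 95% intervals. The 4 genes at the left, mt-Cytb, mt-Nd1, mt-Nd4 and mt-Nd2, lie close together in the 2 libraries, and the gap is widest for mt-Atp8.

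Split by UMI count, a grouping made after the values were seen, the mRNAs fell into separate ranges. The 4 genes with the most UMIs, mt-Cytb, mt-Nd1, mt-Nd2 and mt-Nd4, made up 89.4% of the awake and 83.6% of the anesthesia mtDNA mRNA UMIs and had log2 ratios from -0.07 to 0.43. The other 9 genes had ratios from 0.80 to 1.73. Of these 9, 6 (mt-Nd3, mt-Nd4l, mt-Co1, mt-Co2, mt-Co3 and mt-Atp6) have a near-identical copy among the nuclear genes, at least 97% identical over at least 90 of the last 300 bases, so part of their reads may have been lost or assigned elsewhere. Their ratios ran from 0.80 to 1.15. The 3 without such a copy, mt-Nd5, mt-Nd6 and mt-Atp8, ran from 0.89 to 1.73. The nuclear copies themselves had few UMIs, from 30 for Gm28438 to 191 for Gm28437 over both libraries. Counts of the 6 genes with copies are uncertain for this reason.

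The last 24 bases of the coding strand of the 4 genes with the most UMIs and of mt-Co3 are shown because the kit reads next to the poly(A) tail, and in 3 of the 13 mRNAs the tail itself completes the stop codon. Capitals mark the stop codon or the part of it that the genome encodes, in GRCm38 as annotated by GENCODE M21.
mt-Nd1: gcgggagtaccaccatacataTAG
mt-Nd2: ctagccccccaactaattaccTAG
mt-Nd4: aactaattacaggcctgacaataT
mt-Cytb: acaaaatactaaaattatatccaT
mt-Co3: tctccatttattgatgaggatctT
The genes mt-Nd4, mt-Cytb and mt-Co3 end in a lone T, and the other 10 mRNA genes end in a whole stop codon. The 3 with an incomplete stop had log2 ratios of -0.07, 0.21 and 0.80, so they did not stand together.

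Contrasts between clusters of the same library gave another picture for the same genes. In the awake library, cluster c3 had 1.68% of its UMIs from mtDNA mRNAs and cluster c1 had 0.797%. All 13 mRNAs were at least 1.5-fold higher in c3, against 2.07% of the 9642 genes measured in that contrast, and their log2 ratios ran only from 0.83 for mt-Co2 to 1.17 for mt-Nd1. In the anesthesia library, cluster c0 had 1.63% and c2 had 1.14%. There the log2 ratios ran from 0.39 for mt-Nd4l to 0.58 for mt-Atp6, 0 of 13 reached 1.5-fold, and 2.71% of 10089 genes were at least that much higher. The width of the range over the 13 genes was 0.33 for the awake contrast, 0.19 for the anesthesia contrast, and 1.80 between the libraries. The gene mt-Nd4, the lowest between libraries at -0.07, was 1.11 and 0.53 in these contrasts, and mt-Atp8, the highest between libraries, was 0.98 and 0.54. The mitochondrial genes and the nuclear members were kept out of the genes used for clustering. The clusters were made on these same cells, so these contrasts are a description. The nuclear members had medians of -0.00 and -0.13 in these contrasts, with 0 of 77 past the fold in either direction, against 4.25% and 0.912% of all genes that were lower.

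**Figure D2:**
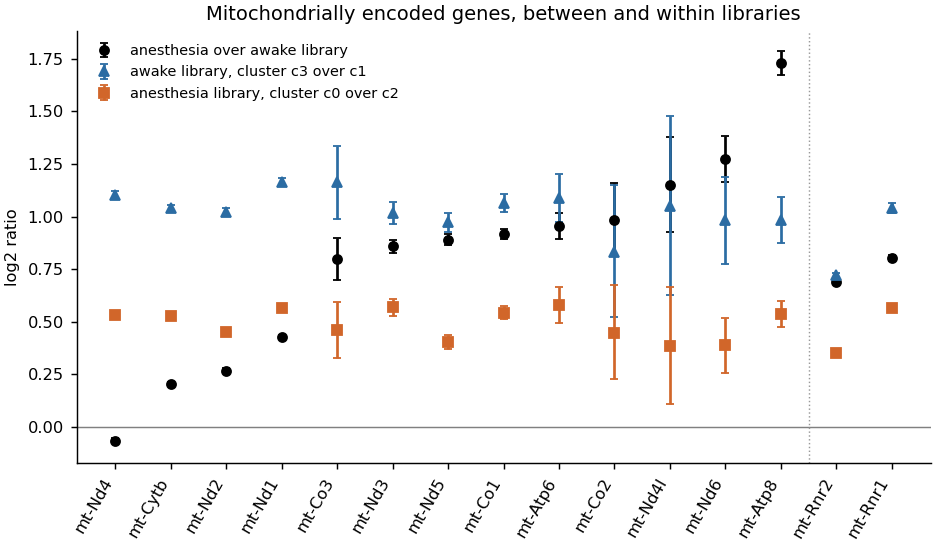
Log2 ratios of the 15 mtDNA genes in microglia-like cells: anesthesia over awake library (circles), cluster c3 over c1 in the awake library (triangles) and c0 over c2 in the anesthesia library (squares), with 95% counting intervals; genes are ordered by the ratio between libraries, ribosomal RNAs at the right. The within-library points lie in narrow bands, from 0.83 to 1.17 and from 0.39 to 0.58 for the mRNAs, whereas the circles run from -0.07 to 1.73.

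Seen cell by cell, the median microglia-like cell had 0.856% of its UMIs from mtDNA mRNAs in the awake library (quartiles 0.532% and 1.42%) and 1.29% in the anesthesia library (0.898% and 1.81%). The distributions overlapped widely. Without cluster c1 the medians were 1.30% and 1.29%. The per-cell difference was smaller without c0 and larger without c2 or c3, so it also depended on which clusters were counted. The median share of the ribosomal RNAs was 0.474% and 0.830%, and that of the nuclear members 0.847% and 0.837%. After thinning every cell to 2000 UMIs (189 awake and 307 anesthesia cells were shallower and were dropped), the mtDNA mRNA medians were 0.850% and 1.30%. The difference varied with the depth of the cells. Among cells of 4000 to 6000 UMIs, the summed mtDNA mRNA share was 0.876% and 1.40%, a log2 ratio of 0.67. Among cells of 1000 to 2000 UMIs it was 1.77% and 1.75% (log2 ratio -0.02), and among those of 8000 to 10000 it was 1.54% and 1.52% (-0.01). Ribosomal RNA was higher in the anesthesia library in all 6 depth ranges, with log2 ratios from 0.14 to 1.03.

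**Figure D3:**
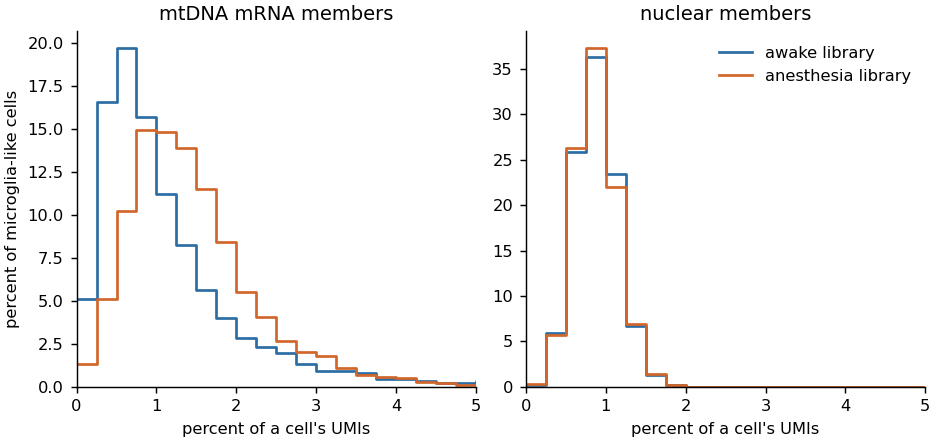
Share of a cell's UMIs from the 13 mtDNA mRNAs (left) and from the nuclear members (right), as the percent of microglia-like cells in each 0.25-point bin, for cells thinned to 2000 UMIs; values over 5% are not drawn. The mtDNA curve of the anesthesia library lies to the right of the awake curve, with medians of 1.30% and 0.850%, and the nuclear curves coincide.

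Among nuclear genes, complex I is the largest set, with 36 of 40 members measured, and its median log2 ratio was -0.17. Complex II had -0.14 (4 of 4 measured), complex III -0.02 (8 of 8), complex IV 0.01 (12 of 19) and complex V 0.01 (17 of 18). These medians are small beside the spread of their members and turned sign under some of the 15 alternative settings, running from -0.27 to 0.04 for complex I and from -0.09 to 0.25 for complex IV. The 7 nuclear core subunits of complex I, which carry its redox centres, had a median of -0.23. Among them Ndufs3 had 2637 awake and 2305 anesthesia UMIs (log2 ratio -0.40), the NADH-binding Ndufv1 -0.24, the iron-sulfur subunit Ndufs7 -0.23, Ndufv2 -0.18 and Ndufs8 -0.03. The largest core subunit, Ndufs1, went the other way with 1436 and 1935 UMIs (0.22).

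The extremes of complex I were accessory subunits. Ndufb10, a disulfide-bearing protein of the membrane arm at chr17:24722060-24724478, had 4727 awake and 3598 anesthesia UMIs, or 95.4 and 62.7 CPM, a log2 ratio of -0.60 (-0.67 to -0.54). It was the only measured member past the fold downward. Next was Ndufa8 with 4022 and 3212 UMIs (-0.54). At the other end, Ndufb4, also of the membrane arm, at chr16:37647170-37654453, had 707 and 1361 UMIs, or 14.3 and 23.7 CPM, a log2 ratio of 0.73 (0.60 to 0.87), followed by Ndufa1 with 2304 and 3945 (0.57). Accessory subunits of the same complex thus lay at both ends of the range, and 34 of 36 measured complex I members stayed within 1.5-fold. With ratios taken within clusters and averaged, or with the trend on GC content and length removed, 0 nuclear members were past the fold downward and Ndufb10 was among those within it.

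The promoters of these 2 genes are shown as the extremes of 1 complex. Capitals mark TGCGCA, the half-site of NRF1, a transcription factor known for nuclear genes of the respiratory chain; the sequences are RefSeq's, GRCm38.p6, read from 250 bases before to 50 after a start of transcription.
Ndufb10, chr17:24724374-24724673, minus strand: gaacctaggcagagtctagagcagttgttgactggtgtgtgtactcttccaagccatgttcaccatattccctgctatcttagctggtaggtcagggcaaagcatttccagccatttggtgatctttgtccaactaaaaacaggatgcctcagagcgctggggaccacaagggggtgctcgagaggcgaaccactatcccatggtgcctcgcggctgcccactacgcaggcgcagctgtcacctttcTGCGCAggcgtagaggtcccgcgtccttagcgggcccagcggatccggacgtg
Ndufb4, chr16:37654319-37654618, minus strand: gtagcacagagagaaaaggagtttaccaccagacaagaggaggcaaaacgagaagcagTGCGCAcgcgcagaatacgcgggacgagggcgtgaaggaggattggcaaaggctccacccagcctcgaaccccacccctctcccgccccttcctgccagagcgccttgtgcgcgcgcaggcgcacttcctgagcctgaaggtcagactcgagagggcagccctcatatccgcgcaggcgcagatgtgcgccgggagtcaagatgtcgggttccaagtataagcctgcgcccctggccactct
Both windows hold the half-site once, at base 248 and at base 59 counted from the 5′ end, although the genes lay at opposite ends. Of the 84 protein-coding nuclear members, 66 had a promoter in the table, and TGCGCA, which reads the same on both strands, was in the promoters of 25.8% of these genes and of 8.79% of all 27025 genes. The ETS family core CCGGAAG, searched on both strands, was in 24.2% and 9.93%, and the YY1 core AAGATGG, on both strands, in 15.2% and 7.28%. A match of letters is not a bound site.

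Complex II, which oxidizes succinate, stayed within 1.5-fold in all 4 genes. The flavin-bearing Sdha had 4278 awake and 4483 anesthesia UMIs (log2 ratio -0.14), the iron-sulfur Sdhb 5370 and 5660 (-0.13), and the membrane anchors Sdhc 2686 and 2549 (-0.29) and Sdhd 2323 and 2909 (0.11). The anchors lay on opposite sides of 0.

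Complex III stayed within the fold in all 8 nuclear genes. The core protein Uqcrc1 was lowest with 4951 and 5077 UMIs (log2 ratio -0.17), followed by Uqcrb (-0.09). The Rieske iron-sulfur protein Uqcrfs1 had 3669 and 4221 UMIs (-0.01). The small subunit Uqcr11 was highest with 4637 and 6404 (0.26), followed by Uqcrq (0.04).

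Complex IV had 12 measured nuclear members, 1 of them past the fold. The largest nuclear subunit Cox4i1 had 22171 and 25701 UMIs, a log2 ratio of 0.00 (-0.02 to 0.03). Cox5a, a matrix-side subunit, was lowest with 6248 and 4896 UMIs, or 126.1 and 85.4 CPM (-0.56). The single-span membrane subunits Cox6c, with 5588 and 9721 UMIs, and Cox7c, with 8889 and 15173, were highest at 0.59 and 0.56. Cox6c, at chr15:35925886-35938246, was just past the 1.5-fold limit, as was Ndufb10 (-0.60) on the lower side. Just short of it were Ndufa1 (0.57), Cox7c (0.56), Ndufa3 (0.56) and Cox5a (-0.56), so the count of members past the fold rests on small differences. Cox6c and Cox7c each have near-identical copies, Cox6c2 and the predicted genes Gm10012 and Gm12338.

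In complex V the catalytic subunits Atp5a1 and Atp5b had log2 ratios of 0.04 (14507 and 17204 UMIs) and 0.08 (15981 and 19610). The rotor-side and stalk subunits Atp5d, with 8721 and 7700 UMIs, and Atp5f1, with 10684 and 9604, were lowest at -0.39 and -0.36. The 3 members past the fold were small membrane-sector subunits. Atp5mpl, at chr12:111961375-111966977, had 3764 and 7583 UMIs, or 75.9 and 132.2 CPM, the highest nuclear ratio at 0.80 (0.74 to 0.86). Atp5g2 (chr15:102662864-102672352) had 323 and 591 UMIs (0.66), and Atp5l (chr9:44912557-44920742) had 2974 and 5279 (0.62). Atp5g2 and Atp5l have near-identical copies and are uncertain for that reason.

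**Figure D4:**
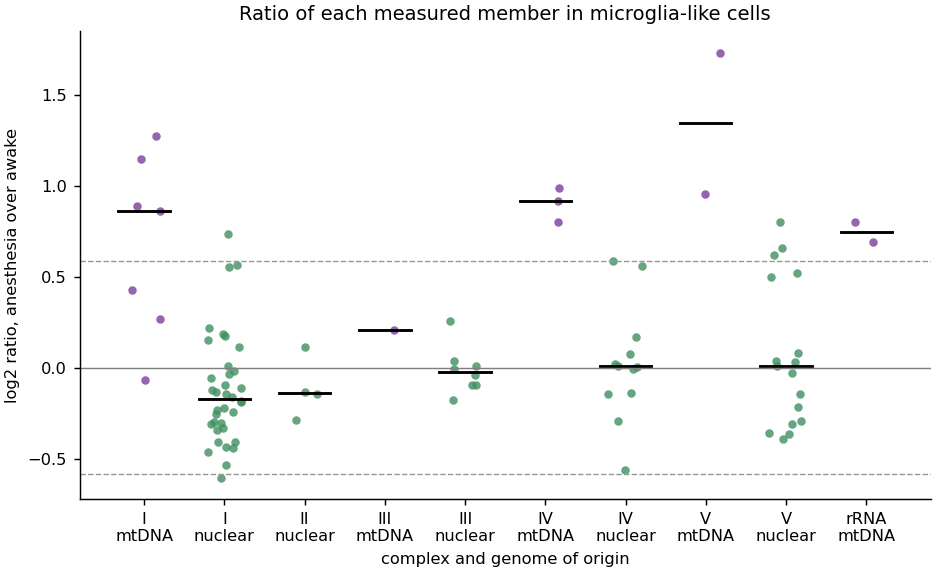
Log2 ratio, anesthesia over awake, of each measured member in microglia-like cells, by complex and genome of origin; points are genes (purple mtDNA, green nuclear), black bars are medians and dashed lines mark 1.5-fold. The nuclear medians lie between -0.17 and 0.01, and the mtDNA genes of complexes I, IV and V reach higher than any nuclear member.

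Several subunits exist as tissue-specific paralogues, and the muscle or lung forms were scarce in microglia-like cells. Cox4i2, the hypoxia-linked partner of Cox4i1, had 10 and 13 UMIs. The heart and muscle forms Cox7a1 and Cox8b had 14 and 22 and 1 and 2 UMIs, against 7230 and 9422 for Cox7a2 and 15930 and 18605 for Cox8a. Cox6a2, a heart and muscle form, was the exception with 241 and 228 UMIs (log2 ratio -0.29), beside 6392 and 6732 for Cox6a1 (-0.14). The testis form Cox6b2 had 38 and 83 UMIs, and Cox6b1 had 9003 and 10967 (0.07). Ndufa4, now known as a subunit of complex IV but counted by its symbol with complex I throughout, had 8278 and 8798 UMIs (-0.12), and its paralogue Ndufa4l2 had 4 and 6. Of the supercomplex factor Cox7a2l 16089 and 16852 UMIs were counted (-0.14). The 3 genes for the same rotor-ring protein, subunit c, had unlike ratios: Atp5g1 -0.14, Atp5g3 0.01 (3479 and 4056 UMIs) and Atp5g2 0.66. Besides Cox4i2, Cox7a1, Cox8b, Cox6b2 and Ndufa4l2, 7 nuclear members did not reach 200 UMIs: Ndufs6b (1 and 1), Ndufb4c (51 and 53), Ndufa11b (3 and 31), Cox6c2 (2 and 7), Cox8c (0 and 1), and Cox7b2 and the second identifier of Atp5o, both with 0 in each library. Among them, Ndufs6b, Ndufb4c, Ndufa11b and Cox6c2 are annotated as processed pseudogenes.

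The nuclear sum depended on how the clusters were combined. In 5 of the 7 microglia-like clusters the nuclear share was higher in the anesthesia library, with log2 ratios of 0.20 in c0, 0.23 in c1, 0.29 in c2, 0.21 in c3 and 0.26 in c5. It was lower in c4 (-0.31), a cluster of shallow cells, and near 0 in c9 (-0.01). In each of the 4 large clusters 1 of the libraries had between 55 and 128 cells. With ratios taken within clusters and averaged, the nuclear median turned from -0.09 to 0.10, with 10 members higher and 0 lower. With TMM scaling, which moved the median of all measured genes by -0.10, it was -0.19, with 2 higher and 3 lower. The mtDNA mRNA sum was higher in the anesthesia library in 6 of 7 clusters, from -0.15 in c0 to 0.87 in c1, and the ribosomal RNA sum in 7 of 7, from 0.08 in c0 to 1.46 in c1.

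Other mitochondrial gene lists were read the same way in microglia-like cells, with 13.1% of all measured genes higher and 12.0% lower as the reference. Of 49 measured assembly factors, the proteins that build the complexes without staying in them, 18 were at least 1.5-fold lower in the anesthesia library and 3 were higher, with a median log2 ratio of -0.35. Over 15 alternative settings that median ran from -0.45 to -0.24, and 11 to 20 factors were lower. The lowest were the complex IV factors Coa4, with 330 awake and 97 anesthesia UMIs (-1.98), and Coa3, with 3264 and 1308 (-1.53), and the complex II factor Sdhaf4, with 1477 and 717 (-1.25). The complex IV factors Cox16 (0.83) and Pet100 (0.76) and the ATP synthase factor Atpaf1 (0.68) were higher. The nuclear subunits of complex IV, by contrast, had a median of 0.01, and those of complex II had -0.14. The difference between the lists was not tested.

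Of 30 measured genes for mitochondrial RNA synthesis and handling, 6 were lower and 1 was higher (2 without the shared barcodes), with a median of -0.02. The rRNA methyltransferase Tfb1m had 194 and 88 UMIs (log2 ratio -1.35), the mitochondrial RNA polymerase Polrmt 465 and 264 (-1.03) and the oligoribonuclease Rexo2 2930 and 1807 (-0.91). The exception upward was Mterf3, with 1051 and 1871 (0.62). 

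Of 11 measured regulators of mitochondrial biogenesis, 1 was higher, the deacetylase Sirt1 with 2280 and 4385 UMIs (0.73), and 0 were lower, with a median of 0.17 that turned to -0.10 within clusters. None of the 18 genes of the tricarboxylic acid cycle passed the fold (median -0.10). Of 28 mitochondrial carriers and import genes, 2 were higher (Timm23, 0.73, and Tomm7, 0.61) and 5 lower, among them Tomm6 (-0.92), the outer-membrane channel Vdac3 (-0.86) and Tomm5 (-0.65). Of 10 electron carriers and subunits outside the name rule, 2 were lower, Dhodh (-0.83) and Etfb (-0.76), which feed electrons to ubiquinone from other pathways.

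The other cell classes in the sort were small. Endothelial-like cells numbered 121 awake and 137 anesthesia, border-associated macrophage-like cells 158 and 98, choroid plexus or ependymal-like cells 41 and 83, and a cluster left unnamed, whose leading genes mix astrocyte and platelet markers, 162 and 68. The neutrophil-like cells, 21 and 3, were too few to describe. All these clusters also showed microglial markers (9 or 10 of 10 in at least 25% of cells), in a sort meant for microglia. The part of microglial RNA in their values was not tested.

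The share of mtDNA mRNA differed among classes more than between libraries. In the awake library it was 1.18% of UMIs in microglia-like, 1.83% in border-associated macrophage-like, 1.86% in endothelial-like and 3.51% in choroid plexus or ependymal-like cells. The nuclear share followed the same order at the ends, with 0.867%, 1.246%, 1.49% and 3.47%. As UMIs of mtDNA mRNA per nuclear UMI, microglia-like cells had 1.37 (awake) and 1.75 (anesthesia), endothelial-like 1.249 and 1.67, border-associated macrophage-like 1.47 and 1.64, and choroid plexus or ependymal-like cells 1.01 and 0.698. Of these 4 classes the choroid class alone had a lower quotient in the anesthesia library.

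In endothelial-like cells the mtDNA mRNA sum was 1.86% in both libraries (log2 ratio -0.00, -0.04 to 0.03), and the nuclear sum was 1.49% and 1.11% (-0.42). Among the 47 measured nuclear members 15 passed the fold downward and 0 upward, against 19.1% lower and 24.5% higher among the 1576 genes measured in that class. Complex I, counted by symbol and so including Ndufa4, had 9 lower of 15 measured. Complex V had 5 lower of 14 measured and complex IV 1 of 11. The lowest were Ndufa8 with 159 and 95 UMIs (-1.31), the ATP synthase subunit Atp5j with 465 and 343 UMIs and Ndufa4 with 327 and 260 (-0.89). Cells over 10000 UMIs held 27.45% of the awake and 51.84% of the anesthesia UMIs of the class. Without them the nuclear sum was -0.23 and the mtDNA sum 0.15.

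In border-associated macrophage-like cells, the macrophages of the meninges and vessels, the mtDNA mRNA sum was 1.83% and 1.63% (log2 ratio -0.17), the ribosomal RNA sum 1.17% and 1.03% (-0.19) and the nuclear sum 1.246% and 0.994% (-0.33). Of 36 measured nuclear members 8 were lower and 0 higher, against 10.9% lower and 23.4% higher of 1372 genes. Ndufb9 (138 and 82 UMIs, -1.09), Ndufb10 (-0.85) and Cox5a (-0.73) were lowest. Few deep cells carried these sums: cells over 10000 UMIs held 32.8% of the awake and 78.9% of the anesthesia UMIs of the class. Without them the mtDNA sum turned to 0.16 and the nuclear sum to 0.09. The median cell had 2.10% and 2.07% of its UMIs from mtDNA mRNAs.

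In choroid plexus or ependymal-like cells, the epithelium that makes cerebrospinal fluid, the mtDNA mRNA sum was 3.51% and 2.69% (log2 ratio -0.38), whereas the ribosomal RNA sum was 0.846% and 1.06% (0.32) and the nuclear sum 3.47% and 3.85% (0.15). Of 55 measured nuclear members 9 were higher and 0 lower, against 14.1% higher and 2.18% lower of 596 genes. Cox8b, nearly absent from microglia-like cells, had 25 and 196 UMIs here (log2 ratio 2.09, 1.49 to 2.75), the largest ratio of any measured member in any class. Atp5k with 112 and 427 UMIs (1.05) and Ndufa3 with 84 and 299 (0.95) followed. Cells over 10000 UMIs held 60.3% of the awake and 57.8% of the anesthesia UMIs of the class. Without them the mtDNA sum was -0.11 and the nuclear sum 0.51.

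In the unnamed cluster the mtDNA mRNA sum was 1.61% and 1.95% (log2 ratio 0.28), the ribosomal RNA sum 1.01% and 1.79% (0.83) and the nuclear sum 0.928% and 0.959% (0.05). Of 31 measured nuclear members 2 were higher and 0 lower, against 7.53% and 7.83% of 1315 genes. These were Atp5mpl (1.04) and Cox6c (0.71).

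**Figure D5:**
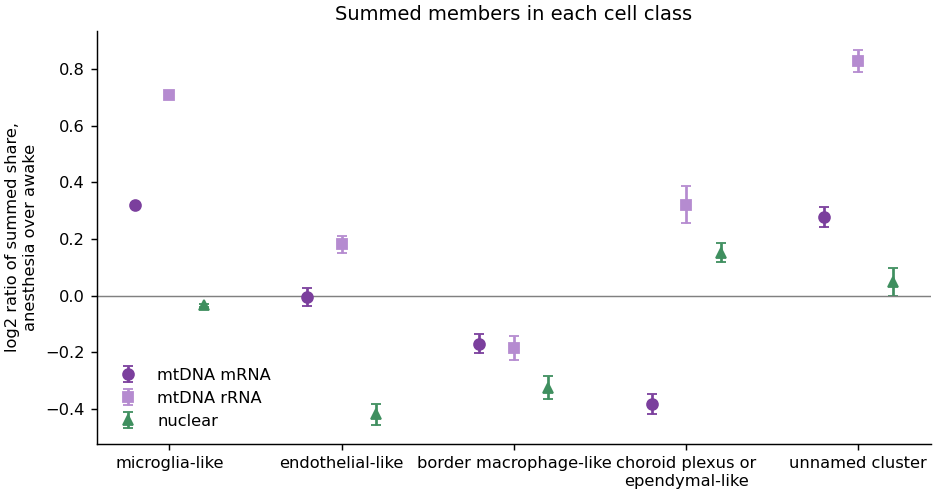
Log2 ratio, anesthesia over awake, of the summed UMI share of the mtDNA mRNAs (circles), mtDNA ribosomal RNAs (squares) and nuclear members (triangles) in each cell class, with 95% counting intervals. The mtDNA mRNA sum lies between -0.38 in choroid plexus or ependymal-like and 0.32 in microglia-like cells, and the nuclear sum between -0.42 and 0.15.

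Among the measured mtDNA mRNAs, the same genes stood at both ends of the order in all 5 classes. Measured were 13 in microglia-like and 9 in endothelial-like cells. In border-associated macrophage-like cells, choroid plexus or ependymal-like cells and the unnamed cluster 8 were measured in each. Outside microglia-like cells mt-Nd6 and mt-Nd4l, next after mt-Atp8 in microglia-like cells, were not measured. The ratio of mt-Nd4 was the lowest of the measured mRNAs in all 5 classes: -0.07 in microglia-like, -0.38 in endothelial-like, -0.50 in border-associated macrophage-like, -0.76 in choroid plexus or ependymal-like cells and -0.13 in the unnamed cluster. The ratio of mt-Atp8 was the highest in each: 1.73, 1.54, 1.13, 1.29 and 1.76 in the same order. The gap between them was 1.80, 1.93, 1.63, 2.04 and 1.89. The classes of 1 library share that library, so they are not independent of each other. Among nuclear genes, Cox7c, Cox6c and Atp5mpl had ratios above 0 in all 5 classes, at 0.36, 0.10 and 0.28 in endothelial-like and 0.26, 0.14 and 0.22 in border-associated macrophage-like cells. Cox5a was below 0 in microglia-like (-0.56), endothelial-like (-0.44) and border-associated macrophage-like (-0.73) cells and in the unnamed cluster (-0.43), with -0.00 in the choroid class.

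Barcodes of sufficient depth but over 10% mitochondrial UMIs were left out of all values above. They numbered 74 of 8297 in the awake library (0.892%, Clopper-Pearson interval 0.701% to 1.12%) and 101 of 9045 in the anesthesia library (1.12%, 0.910% to 1.36%). Their mtDNA mRNA share was 11.5% and 6.93%, their mtDNA ribosomal RNA share 7.3% and 7.5%, and their nuclear share 1.43% and 1.17%.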

How the data were processed

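The authors deposited 1 matrix per library, which holds raw UMI counts of every gene in every barcode. The submitters' processing notes name bcl2fastq, Cell Ranger 3.1.0 and GRCm38. A header line in the matrices names cellranger 4.0.0 instead, and the difference was not settled. How barcodes were called as cells, and how reads matching several genes were treated, is not given in the sources used here.

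All 55450 identifiers matched GENCODE M21. Cells needed 500 genes, 1000 UMIs and at most 10% mitochondrial UMIs (37 genes), which kept 8223 of 8600 awake and 8944 of 9412 anesthesia barcodes. Both libraries entered a joint clustering in scanpy 1.11.5, by leidenalg 0.10.2 (2000 variable genes, 30 components, 15 neighbours, resolution 0.6). The variable genes were chosen without mitochondrial genes and without any of the 104 members. Ribosomal protein and haemoglobin genes, Gm42418, AY036118 and a further list of genes were also left out of that choice. A cluster was called microglia-like if 25% of its cells or more had a UMI for each of at least 7 of 10 markers. It also had to carry no other class name and at most 1 marker of any other class among its 10 leading genes. Other classes needed 3 markers among their 10 leading genes and fewer markers of rival classes there. The choroid plexus or ependymal-like cluster had 4 of its own markers and 1 rival marker among them. No doublet caller was run, and cells over 10000 UMIs were left out as an alternative.

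UMI counts were summed per library and class and divided by the class's total. Ratios have exact conditional binomial, levels exact Poisson and shares Clopper-Pearson 95% intervals. Genes with 200 UMIs over both libraries count as measured, and 1.5-fold is the call. Medians over a list describe its measured members. With 1 library per group there is no test. Near-identical copies were searched with BLAST+ 2.17.0 over the last 300 transcript bases, and TMM factors came from edgeR 4.0.16. The ratio, its interval and the thinning were tested on simulated counts.

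Genes named are all mtDNA members; the 2 highest and 2 lowest nuclear ratios of each complex; catalytic-centre subunits (with Atp5if1, which no listed symbol matches); paralogue sets; members past 1.5-fold; and up to 3 genes each way from other lists. A gene that this rule names is not reported here. Genes named in other classes, and the grouping of mtDNA genes by UMI count, were chosen after their values were seen. The members and lists were chosen with earlier results of these data known.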

Additional observations from a re-analysis of the deposited data

Results flagged for a closer look

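The mtDNA mRNA sum went against that of microglia-like cells (0.32, and -0.11 without cluster c1) in border-associated macrophage-like cells, with a log2 ratio of -0.17, and in choroid plexus or ependymal-like cells, with -0.38. The mtDNA ribosomal RNA sum did so in border-associated macrophage-like cells, with -0.19 against 0.71. The nuclear sum did so in choroid plexus or ependymal-like cells, with 0.15 against -0.03. Each was singled out because 1 class lay above and the other below 0, the differences between classes were not tested, and both border-associated macrophage sums of mRNA genes changed sign without cells over 10000 UMIs. The 22 mtDNA tRNA genes, which are outside the name rule, had 843 UMIs in awake and 2632 in anesthesia microglia-like cells, a log2 ratio of 1.43. They were singled out as signal in genes outside the main measurement.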

How the results depend on the processing

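No paired analysis was possible because each group has 1 library. Of 153 values under the alternatives for the main results, 99 kept their direction and moved little, 46 moved and 8 changed sign. The mtDNA mRNA median stayed between 0.49 and 1.31 and no mtDNA mRNA was lower by the fold in any of 16 alternatives. For the nuclear genes the median changed sign with ratios within clusters (0.10; 10 higher, 0 lower) and after removal of the trend on GC content and length (0.073; 0 lower), and it was -0.19 with TMM (2 higher, 3 lower). At the 25% limit, 10 were higher and 13 lower. The lower count was 0 without cells over 10000 UMIs and over all cells passing the filter. The ribosomal RNA median of 0.75 was 0.65 with TMM and 0.50 with the trend removed. Other settings were chosen after seeing the data. Without clusters c0, c1, c2 and c3 in turn, the summed log2 ratio of the mtDNA mRNAs (0.32) was 0.033, -0.11, 0.46 and 0.78, that of the ribosomal RNAs (0.71) was 0.52, 0.377, 0.82 and 1.02, and that of the nuclear members (-0.03) was 0.044, -0.057, -0.069 and -0.024. The difference of per-cell mtDNA mRNA medians (0.43 points) was 0.196, -0.00654, 0.665 and 0.626. With ratios within clusters the 3 summed ratios were 0.34, 0.76 and 0.16, and without cells over 10000 UMIs 0.33, 0.756 and -0.00824. Without cluster c1 the ribosomal RNA median was 0.38 and 4 mtDNA mRNAs were higher; without c3 the medians were 1.11 and, for mRNA, 1.31, with 2 nuclear genes lower; without c0 the ribosomal RNA median was 0.52, with 9 nuclear genes higher and 0 lower; without c2 it was 0.87, with 2 higher and 3 lower. In other classes, leaving out cells over 10000 UMIs gave mtDNA and nuclear sums of 0.15 and -0.23 (endothelial-like), 0.16 and 0.086 (border-associated macrophage-like) and -0.11 and 0.51 (choroid plexus or ependymal-like). Without the mitochondrial limit the cells were clustered anew, and the endothelial-like cluster held 284 awake and 240 anesthesia cells, against 121 and 137. Its mtDNA sum was -0.45, a value that is not of the same cells. The border-associated macrophage-like cells gave no value because their cluster was unnamed there. The causes were not tested. Of 1380 values of single genes 906 moved little and 474 moved; no gene past the fold changed sign, but genes short of it did. Of 15 mtDNA genes 12 kept their sign without c1 and 14 without each of c0, c2 and c3. Of 77 nuclear genes 55 kept it within clusters, 63 with the trend removed and 66 with TMM.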
